A study of Mus musculus with 9 samples.

Results

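Tudor-domain and piRNA pathway genes are the 10 mouse genes Piwil2, Ddx4, Tdrd12, Tdrd9, Mael, Tdrkh, Asz1, Tdrd1, Tdrd5 and Tdrd7. They were chosen by name, as genes of one germline pathway, from the 19938 genes to which the platform annotation gives a symbol of their own. Each of the 10 was represented by 1 probe set on the array. Their RNA was compared in 3 mouse cell lines with 3 arrays each. P19 NTES7 is an ES-like line from a blastocyst that was cloned from a P19 nucleus, P19 is an embryonal carcinoma (EC) line, and R1 is a normal embryonic stem (ES) cell line. The labels name the first line only as stem cells derived from P19, and its arrays were taken as those of P19 NTES7, the line the paper carried into its array work, so this group stands for 1 cloned line. All lines grew in the same medium with serum and leukemia inhibitory factor. The design text has the feeder cells removed, and the methods describe NTES and ES cells, but not P19 cells, as grown on embryonic fibroblasts.

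PIWI-interacting RNAs (piRNAs) are small RNAs of the germline that guide PIWI proteins to transposon transcripts, which are then cut, or to transposon DNA, which is then methylated. PIWI proteins carry methylated arginines, and Tudor domains bind them, so Tudor proteins gather the PIWI proteins, RNA helicases and trimming enzymes in granules beside the mitochondria. Most of these genes are silent in somatic cells, many under DNA methylation of a CpG-rich promoter or under the E2F6 and PRC1.6 repressor complexes. Pluripotent stem cells in culture can carry RNA of some of them.

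The promoters of the 5 genes with the largest differences between the lines are shown first, because CpG content and motifs of germline promoters are features that the expression values did not use. Each run is the 250 bases before the start of the gene, read 5′ to 3′ on the strand of the gene from RefSeq (GRCm38.p6), with every CpG dinucleotide in capitals. The genomes of the 3 lines were not read, and DNA methylation was not measured.
Tdrd12 (chr7:35537745-35537994, minus strand): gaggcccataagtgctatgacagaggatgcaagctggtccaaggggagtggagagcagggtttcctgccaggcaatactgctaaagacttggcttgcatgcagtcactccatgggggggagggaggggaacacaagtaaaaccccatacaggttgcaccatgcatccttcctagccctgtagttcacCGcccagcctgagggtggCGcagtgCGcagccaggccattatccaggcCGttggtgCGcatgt
Ddx4 (chr13:112652311-112652560, minus strand): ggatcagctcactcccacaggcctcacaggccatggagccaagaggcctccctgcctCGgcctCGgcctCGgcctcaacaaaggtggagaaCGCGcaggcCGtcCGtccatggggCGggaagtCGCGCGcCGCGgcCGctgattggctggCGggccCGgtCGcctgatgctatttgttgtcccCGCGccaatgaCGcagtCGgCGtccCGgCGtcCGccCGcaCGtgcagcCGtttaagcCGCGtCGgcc
Mael (chr1:166238745-166238994, minus strand): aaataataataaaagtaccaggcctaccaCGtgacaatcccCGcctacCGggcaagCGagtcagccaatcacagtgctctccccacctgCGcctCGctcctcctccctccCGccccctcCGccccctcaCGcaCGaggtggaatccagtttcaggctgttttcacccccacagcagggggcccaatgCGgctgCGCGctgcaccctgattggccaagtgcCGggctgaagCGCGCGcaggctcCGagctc
Tdrkh (chr3:94412994-94413243, plus strand): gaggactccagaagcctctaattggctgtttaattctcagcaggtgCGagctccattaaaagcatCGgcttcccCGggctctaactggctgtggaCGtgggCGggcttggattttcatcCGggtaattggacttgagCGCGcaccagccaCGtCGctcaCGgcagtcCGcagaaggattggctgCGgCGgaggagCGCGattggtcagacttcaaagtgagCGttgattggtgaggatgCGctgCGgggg
Tdrd5 (chr1:156303349-156303598, minus strand): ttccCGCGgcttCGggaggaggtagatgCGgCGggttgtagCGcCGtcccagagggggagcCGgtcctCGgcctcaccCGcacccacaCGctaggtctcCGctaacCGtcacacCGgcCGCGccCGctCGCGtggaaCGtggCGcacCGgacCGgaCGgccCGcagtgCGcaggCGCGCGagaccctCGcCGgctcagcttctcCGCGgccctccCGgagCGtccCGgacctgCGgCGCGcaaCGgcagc

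RefSeq entries matched 9 of the 10 genes, all but Piwil2. Over the same window in 27025 genes the median number of CpGs was 6, with quartiles of 2 and 16. The Tdrd5 promoter held 40 CpGs, more than 98.7% of all promoters, and that of Ddx4 held 31, more than 95.1%. Tdrkh had 19 CpGs, Mael 18, Asz1 15, Tdrd1 11 and Tdrd9 8. The sparsest were Tdrd12 with 5 CpGs and Tdrd7 with 3, so Tdrd12, the member with the widest range between the lines, lay below the median of all promoters. For Tdrd1 and Tdrd7, with 3 starts each in RefSeq, and Tdrd12, with 2, the most upstream start was used.

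**Figure D1:**
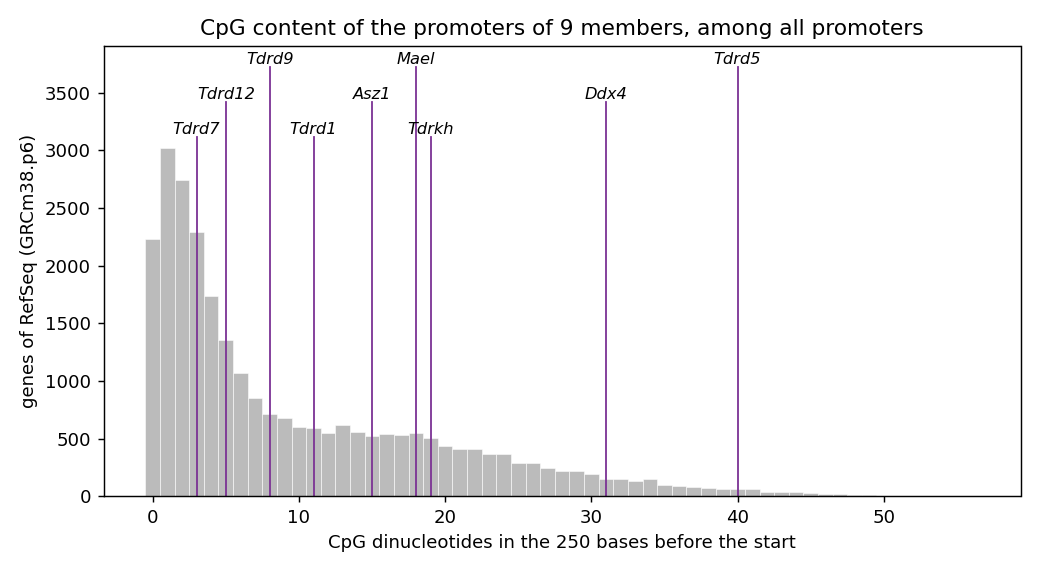
Number of CpG dinucleotides in the 250 bases before the start, with the number of genes on the y axis (grey bars, 27025 genes of RefSeq, GRCm38.p6) and each of the 9 matched members as a purple line. Tdrd5 at 40 and Ddx4 at 31 stand in the right tail, and Tdrd7 at 3 and Tdrd12 at 5 below the median of 6.

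Both strands were searched for 3 motifs. TCCCGC, the core that E2F6 binds in mouse germline promoters and a part of the wider E2F site, was in 16.9% of all promoters and in 3 of the 9 members, Tdrd5, Ddx4 and Mael. It ended 244 bases before the start in Tdrd5, 131 in Ddx4 and 138 in Mael. CACGTG, the E-box that MGA and MAX share with other factors, was in 6.0% of all promoters and in 4 members, Tdrd1, Tdrd9 (2 matches), Ddx4 and Mael. TATAAA was in 13.0% of all promoters and in 1 member, Tdrd7, where 2 matches overlapped between 31 and 24 bases before the start. These matches describe letters only, and binding was not measured.

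The deposited values are intensities on a linear scale, and medians of the 9 arrays lay between 16.5 and 17.5. A member below its array's median may lie near the floor of the array, so a fold against it is not exact. Below the median on all 9 arrays were Tdrd1, Tdrd9 and Asz1. The number of arrays limited the precision. Levels of different genes come from different probes and are not set against each other. Differences in log2 intensity were tested with limma over all 28853 probe sets, and a gene was called where the Benjamini-Hochberg adjusted p was under 0.01 and the fold change over 2. Every adjusted p below is of this kind, and errors of log2 differences are limma's standard errors (SE). Per the labels, the arrays within a line are biological repeats. No source used here says whether each had a culture of its own, and a p-value therefore reflects the spread among arrays, which may be technical. Markers of pluripotent cells were above the array median in each line: over 8 markers at most 1 on any array was below it, and Pou5f1 averaged 1471 ± 199 in P19 NTES7, 2196 ± 109 in P19 and 1470 ± 153 in R1 (SD, n = 3). Nanog, Zfp42 and Dppa4 were called lower in P19 than in R1, while in P19 NTES7 the calls below R1 were Zfp42, Utf1 and Dppa4. Between P19 NTES7 and P19, Nanog and Zfp42 were called higher in P19 NTES7 and Utf1 was called lower there. Nanog averaged 627 ± 11.4 in P19 NTES7, 178 ± 15.6 in P19 and 913 ± 59.4 in R1. Zfp42 averaged 41.7 ± 3.19 in P19 NTES7, 19.7 ± 5.19 in P19 and 289 ± 37.8 in R1.

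Between P19 and R1 the members did not move together. Tdrkh was called higher in P19, and Tdrd12, Ddx4 and Mael were called lower, by 3.93-fold to 13.6-fold. The other 6 were not called. The background over the whole array was 3.70% called higher in P19 than in R1 and 3.70% called lower, against 1 and 3 of the 10 members. The median log2 difference of the members was -0.21, and that of all genes -0.02.

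Between P19 NTES7 and P19, the question is how far the cloned line left the state of its donor. Tdrd5, Ddx4 and Mael were called higher in P19 NTES7, by 2.47-fold to 3.96-fold, and no member was called lower. The background was 1.55% of probe sets with a call for P19 NTES7 over P19 and 1.36% with a call in the other direction. The count of 0 lower members in limma was also 0 at an unadjusted p under 0.05 and 0 by the methods' variance test. The variance test called 380 of all 28853 probe sets lower in P19 NTES7. For the unadjusted limit no share of all probe sets is given. With 1.36% of probe sets called lower, 0 calls among so few members says little about direction. The members' median log2 difference was 0.50, against 0.02 over all genes.

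Between P19 NTES7 and R1, the question is how far the cloned line matched a normal ES line. Tdrkh, Tdrd5 and Tdrd7 were called higher in P19 NTES7, and Tdrd12 was called lower. The background was 1.99% of probe sets with a call for P19 NTES7 over R1 and 2.53% with a call in the other direction. The median difference of the members was 0.03 on the log2 scale, against 0.01 over all genes. The 3 comparisons share their arrays, so each gene's values are given side by side below rather than as agreement between comparisons.

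**Figure D2:**
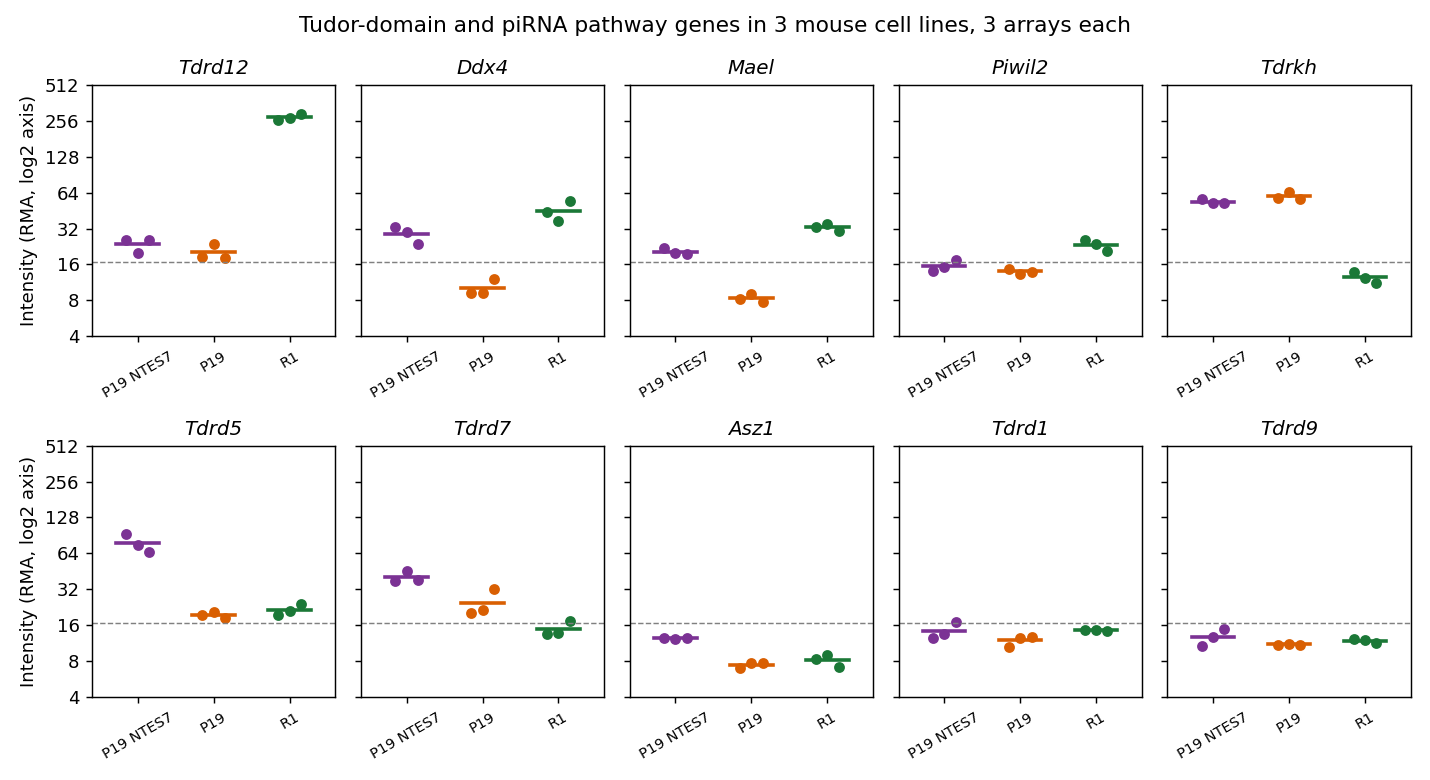
Intensity of the 10 members on each array (y axis, RMA values on a log2 axis), with P19 NTES7, P19 and R1 from left to right, points for the 3 arrays of a line, bars for their mean and a dashed line at 16.8, the median of the array medians. Tdrd12 is high in R1 arrays only (262 to 291), Tdrkh is low in R1 only, and Tdrd5 is high in P19 NTES7 only (65.7 to 92.3).

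The PIWI protein of the group, Piwil2 (mouse MILI), loads the first piRNAs of fetal male germ cells. Its intensities were 14.2, 15.3 and 17.4 in P19 NTES7, 14.8, 13.4 and 13.9 in P19, and 25.7, 23.8 and 20.9 in R1. The R1 arrays stood above those of both other lines without overlap, and all P19 NTES7 and P19 arrays were below their array medians. The differences did not reach the fold limit: the log2 difference was -0.74 for P19 minus R1 (SE 0.11, adjusted p = 0.000139) and -0.59 for P19 NTES7 minus R1 (SE 0.11, adjusted p = 0.00132). Between P19 NTES7 and P19 the log2 difference was 0.15, with a 95% interval from -0.09 to 0.39 (adjusted p = 0.403).

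Of the RNA helicases, Tdrd12 had the widest range of all members. Tdrd12 carries helicase and Tudor domains and is needed for secondary piRNAs in the mouse testis. It was at 25.5, 20.1 and 25.7 in P19 NTES7, 18.5, 24.0 and 18.2 in P19, and 262, 268 and 291 in R1. The arrays of the cloned line and its donor overlapped, and all R1 arrays were far above both. Tdrd12 was 13.6-fold lower in P19 than in R1 (log2 difference -3.77, SE 0.13, adjusted p = 1.58e-10) and 11.6-fold lower in P19 NTES7 than in R1 (-3.53, SE 0.13, adjusted p = 5.76e-10). The log2 difference of P19 NTES7 minus P19 was 0.23, with a 95% interval from -0.05 to 0.52 (adjusted p = 0.258).

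Ddx4, the mouse Vasa helicase that marks germ cells and their granules, had another pattern. Its intensities were 32.9, 30.2 and 23.6 in P19 NTES7, 9.29, 9.23 and 12.1 in P19, and 43.8, 37.3 and 54.3 in R1. The 3 lines did not overlap, with P19 lowest and below the array median, P19 NTES7 between and R1 highest. Ddx4 was 4.41-fold lower in P19 than in R1 (log2 difference -2.14, SE 0.16, adjusted p = 2.18e-07) and 2.83-fold higher in P19 NTES7 than in P19 (1.50, SE 0.16, adjusted p = 2.07e-05). Between P19 NTES7 and R1 the difference stayed under the fold limit (log2 difference -0.64, SE 0.16, adjusted p = 0.0094). Tdrd9, a helicase with a Tudor domain that works with the PIWI protein Piwil4 in the mouse, lay between 10.8 and 14.9 on all 9 arrays and was not called in any comparison.

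Mael, an HMG-box protein of germ granules that is needed for transposon silencing, followed the same order of lines as Ddx4. It was at 22.0, 19.9 and 19.8 in P19 NTES7, 8.25, 9.02 and 7.69 in P19, and 32.9, 34.7 and 30.5 in R1. No arrays of different lines overlapped, and the P19 arrays were all below the array median. Mael was 3.93-fold lower in P19 than in R1 (log2 difference -1.98, SE 0.10, adjusted p = 5.27e-09) and 2.47-fold higher in P19 NTES7 than in P19 (1.31, SE 0.10, adjusted p = 1.01e-06). P19 NTES7 minus R1 was -0.67 on the log2 scale (SE 0.10, adjusted p = 0.000208), under the fold limit. With values under 16 set to 16, the P19 NTES7 and P19 difference lost its call for Mael (0.36, adjusted p = 0.0111) and for Ddx4 (0.84, adjusted p = 0.0255).

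The summed intensity of 20 fibroblast markers had the same order of lines as Ddx4 and Mael. This order was not particular to fibroblast markers. Nanog, Zfp42, Dppa4 and the summed intensity of 14 germ cell markers had it too, while Pou5f1, Sox2, Utf1, Sall4 and Lin28a did not. The sum of these 8 pluripotent cell markers was lowest in P19 NTES7. Their mean log2 overlapped between P19 NTES7 (7.87 to 8.03) and P19 (7.8 to 8.08). Of the 20 fibroblast markers, 16 were called lower in P19 than in R1, and 12 had a call for P19 NTES7 over P19. The calls between P19 NTES7 and R1 were Dcn, Lum and Prrx1, all lower in P19 NTES7. Over all probe sets the shares of these calls were 3.70%, 1.55% and 2.53%. The fibroblast sum was 1790 to 2084 on P19 NTES7 arrays, 757 to 790 on P19 arrays and 2269 to 2681 on R1 arrays. On P19 arrays 11 to 13 of the 20 were below the array median, against 1 to 3 in P19 NTES7 and 1 in R1. The mean was lowest in P19 for 20 of the 20, and it was highest in R1 for 17 and in P19 NTES7 for Acta2, Tagln and Pdgfra. The decorin gene Dcn, for instance, averaged 80.6 ± 7.23 in P19 NTES7, 8.45 ± 0.245 in P19 and 232 ± 70.5 in R1 (SD, n = 3). The part of these cells in the levels of Ddx4 and Mael was not tested. A lower share of cells with the RNA and less RNA per cell cannot be told apart in bulk samples such as these.

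The mitochondrial anchors of the pathway differed from each other. Tdrkh, a Tudor and KH-domain protein of the outer mitochondrial membrane, holds PIWI proteins while the ends of piRNAs are trimmed. Its intensities were 56.4, 52.4 and 52.2 in P19 NTES7, 58.3, 65.1 and 57.1 in P19, and 13.8, 12.3 and 11.2 in R1. All R1 arrays were below their array median, and all arrays of the other lines were above them. Tdrkh was 4.84-fold higher in P19 than in R1 (log2 difference 2.28, SE 0.10, adjusted p = 1.8e-09) and 4.32-fold higher in P19 NTES7 than in R1 (2.11, SE 0.10, adjusted p = 7.14e-09). P19 NTES7 minus P19 was -0.16, with a 95% interval from -0.39 to 0.06 (adjusted p = 0.332). The direction of Tdrkh, low in R1, was thus opposite to that of Tdrd12, high in R1, with no call between the cloned line and its donor for either gene.

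Asz1 (GASZ), an ankyrin-repeat scaffold on germ cell mitochondria, was near the floor. It was at 12.5, 12.3 and 12.6 in P19 NTES7, 6.94, 7.66 and 7.67 in P19, and 8.33, 8.96 and 7.18 in R1. P19 NTES7 arrays stood above those of both other lines, but below the array median. The log2 difference was 0.75 for P19 NTES7 minus P19 (SE 0.10, adjusted p = 0.000162) and 0.62 for P19 NTES7 minus R1 (SE 0.10, adjusted p = 0.000473), both under the fold limit. P19 minus R1 was -0.13, with a 95% interval from -0.35 to 0.09 (adjusted p = 0.372).

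Among the Tudor scaffolds, Tdrd5 was high in the cloned line alone. In the mouse Tdrd5 is needed for the chromatoid body and for transposon silencing in the testis. It was at 92.3, 76.0 and 65.7 in P19 NTES7, 19.5, 20.7 and 18.5 in P19, and 19.7, 20.9 and 24.3 in R1. The P19 NTES7 arrays stood above all others, and the P19 and R1 arrays overlapped. Tdrd5 was 3.96-fold higher in P19 NTES7 than in P19 (log2 difference 1.98, SE 0.13, adjusted p = 1.87e-07) and 3.59-fold higher than in R1 (1.84, SE 0.13, adjusted p = 2.04e-07). P19 minus R1 was -0.14, with a 95% interval from -0.42 to 0.14 (adjusted p = 0.447).

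Tdrd7, which remodels germ granules in spermatids and also acts in the lens, was at 37.9, 45.9 and 38.3 in P19 NTES7, 20.1, 21.6 and 32.3 in P19, and 13.4, 13.6 and 17.3 in R1. The lines did not overlap, in the order P19 NTES7, P19 and R1, and P19 array 3 was set apart from the other P19 arrays. Tdrd7 was 2.76-fold higher in P19 NTES7 than in R1 (log2 difference 1.47, SE 0.17, adjusted p = 2.01e-05), a call lost with 16 added to every value (0.88). Neither step between neighbours reached the fold limit, with log2 differences of 0.75 for P19 NTES7 minus P19 (SE 0.17, adjusted p = 0.00606) and 0.72 for P19 minus R1 (SE 0.17, adjusted p = 0.00433). Tdrd1, a scaffold of germ granules that binds Piwil2, lay between 10.6 and 17.1 on all arrays and was not called. Its log2 differences were -0.28 for P19 minus R1 (adjusted p = 0.102), 0.25 for P19 NTES7 minus P19 (adjusted p = 0.208) and -0.04 for P19 NTES7 minus R1 (adjusted p = 0.879).

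**Figure D3:**
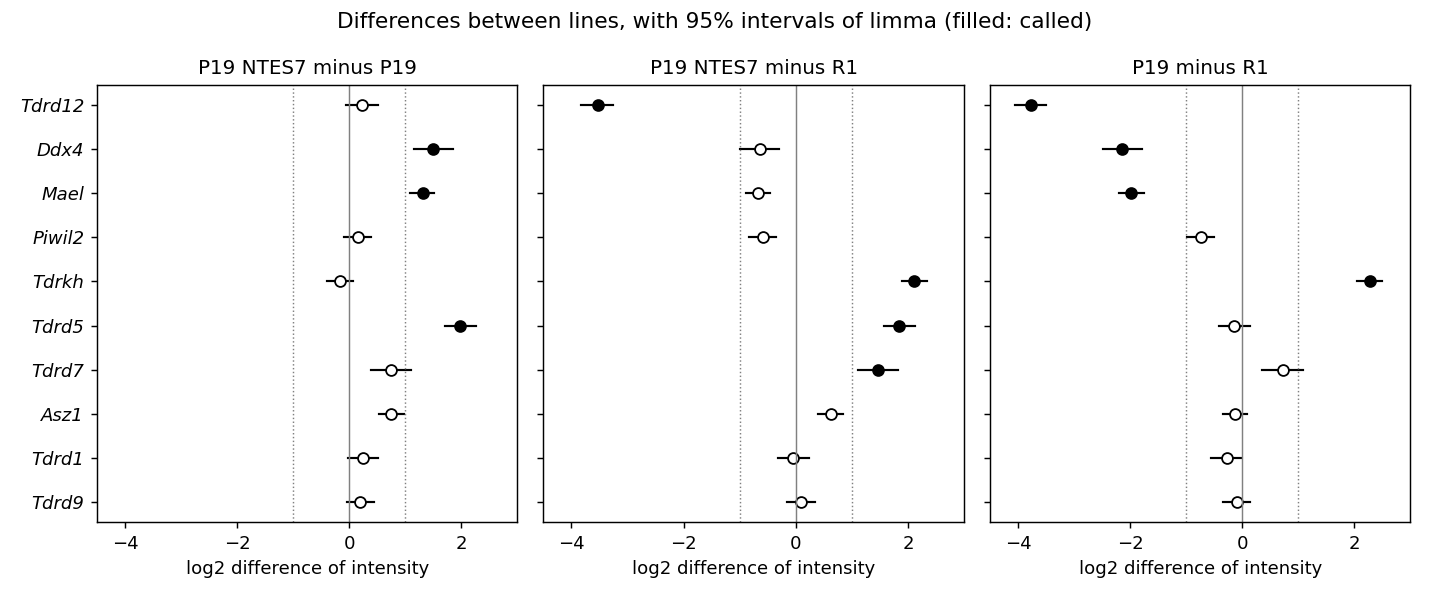
Log2 differences of the 10 members between lines (x axis; P19 NTES7 minus P19, P19 NTES7 minus R1 and P19 minus R1 from left to right), with 95% intervals from limma, filled points for called genes, a solid line at 0 and dotted lines at the fold limit. Tdrd12 is at 0.23 in the first panel and at -3.53 and -3.77 in the others, while Tdrd5 is at 1.98, 1.84 and -0.14.

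Tdrd5, Ddx4 and Mael, which had a call for P19 NTES7 over P19, were the same 3 genes whose promoters held the TCCCGC motif. Ddx4 and Mael lost that call with values under 16 set to 16 and with 16 added to every value, and Tdrd5 kept it. The motif was in 3 of the 9 members with a promoter and in 16.9% of all promoters. The overlap was noticed after the values were seen and was not tested, and binding was not measured. E2f6, the gene of the repressor that binds this motif, averaged 58.6 ± 7.04 in P19 NTES7, 87.6 ± 7.49 in P19 and 58.8 ± 9.70 in R1 (SD, n = 3). It was not called (log2 difference -0.58 for P19 NTES7 minus P19, SE 0.13, adjusted p = 0.00633). Of the 15 repressors of germline genes below, limma had 4 higher and 4 lower in P19 than in R1 at an unadjusted p under 0.05. The higher were E2f6 (0.58), Dnmt3a, Dnmt3b and Ehmt1, and the lower Mga (-0.49), L3mbtl2 (-0.88), Pcgf6 (-0.5) and Trim28. In P19 NTES7 against P19, 0 were higher and 5 lower at that limit, among them E2f6, Dnmt3a, Dnmt3b (-0.69) and Rnf2 (-0.8). No share of all probe sets is given for this limit. Tdrd5 was at -0.14 for P19 minus R1 and not called. The part of any repressor in the levels of Tdrd5, Ddx4 and Mael was not tested.

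Other genes of the pathway were read as background. Of 17 further piRNA pathway genes, 14 were measured. Of these, 5 were called lower in P19 than in R1 and 0 higher, where limma gave 0 higher also at an unadjusted p under 0.05 and the methods' variance test gave 0. Compared with P19, 5 were called higher in P19 NTES7 and 0 lower, again with 0 lower at an unadjusted p under 0.05 and 0 by the variance test. Compared with R1, 2 were called higher in P19 NTES7 and 2 lower. The median log2 differences were -0.36 for P19 minus R1, 0.41 for P19 NTES7 minus P19 and -0.13 for P19 NTES7 minus R1. Over all genes they were -0.02, 0.02 and 0.01. Over all probe sets, 3.70% were called lower in P19 than in R1 and 3.70% higher. P19 NTES7 had 1.55% called higher than P19 and 1.36% lower, and 1.99% higher than R1 and 2.53% lower. At such shares, 0 calls among 14 genes says little about direction.

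Dnmt3l, the cofactor of the enzymes that methylate transposon DNA in germ cells, had the largest difference of these. It was at 117, 113 and 124 in P19 NTES7, 24.7, 26.1 and 22.0 in P19, and 302, 307 and 233 in R1. The 3 lines did not overlap, and all 3 comparisons were called, with log2 differences of -3.53 for P19 minus R1 (SE 0.12, adjusted p = 1.31e-10), 2.29 for P19 NTES7 minus P19 (SE 0.12, adjusted p = 3.06e-08) and -1.24 for P19 NTES7 minus R1 (SE 0.12, adjusted p = 4.54e-06). Morc1, a silencer of transposons in the male germline, was at 21.7, 26.4 and 20.6 in P19 NTES7, 11.4, 10.9 and 11.6 in P19, and 91.4, 83.1 and 78.3 in R1. It was 7.44-fold lower in P19 than in R1 and 3.70-fold lower in P19 NTES7 than in R1. Its call between P19 NTES7 and P19, at 2.01-fold, was lost without array 2 of P19 NTES7 (log2 difference 0.90) or array 2 of P19 (0.98). It was also lost with arrays scaled to a common median (0.96), with a further quantile normalization (0.97), with 16 added to every value (0.51) and with values under 16 set to 16 (0.51, adjusted p = 0.0242).

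Pnldc1, the enzyme that trims piRNA ends on the mitochondrial surface where Tdrkh sits, averaged 48.9 ± 3.57 in P19 NTES7, 14.7 ± 1.81 in P19 and 71.4 ± 14.1 in R1 (SD, n = 3). It was 4.83-fold lower in P19 than in R1 (adjusted p = 2.56e-08) and 3.34-fold higher in P19 NTES7 than in P19 (adjusted p = 1.31e-06), an order of lines unlike that of Tdrkh. Piwil4 (MIWI2), the nuclear PIWI protein of fetal male germ cells, was at 25.7, 24.5 and 27.8 in P19 NTES7, 9.06, 9.94 and 10.2 in P19, and 9.71, 10.4 and 9.98 in R1. Like Tdrd5 it was high in P19 NTES7 alone, at 2.67-fold the P19 level (adjusted p = 2.71e-07) and 2.59-fold the R1 level (adjusted p = 1.99e-07). Gpat2, a mitochondrial partner of Piwil2, was at 30.1, 31.7 and 28.1 in P19 NTES7, 8.91, 7.88 and 8.90 in P19, and 9.62, 10.8 and 10.4 in R1. Its P19 NTES7 level was 3.50-fold that of P19 (adjusted p = 4.19e-08) and 2.92-fold that of R1 (adjusted p = 8e-08), both called. With values under 16 set to 16, all 4 calls of Piwil4 and Gpat2 were lost, at log2 differences of 0.70 and 0.90.

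Mybl1 (A-MYB), the transcription factor of pachytene piRNA genes, averaged 33.3 ± 4.11 in P19 NTES7, 21.9 ± 2.89 in P19 and 61.5 ± 11.4 in R1 (SD, n = 3) and was 2.79-fold lower in P19 than in R1 (adjusted p = 2.84e-06). Mov10l1, the helicase that starts piRNA production, averaged 10.6 ± 0.234 in P19 NTES7, 8.35 ± 0.499 in P19 and 16.8 ± 1.91 in R1. Its 2.01-fold lower level in P19 than in R1 sat at the fold limit, and the call was lost without array 1 of P19 (log2 difference -0.95), array 1 of R1 (-0.97) or array 2 of R1 (-0.95). It was also lost with arrays scaled to a common median (-0.98), with a further quantile normalization (-0.95) and with 16 added to every value (-0.43), and with values under 16 set to 16 the log2 difference was -0.11 (adjusted p = 0.16). Genes not called included Pld6, a mitochondrial protein needed for piRNA production, and Tex15, a factor of transposon methylation. Pld6 was at 43.5, 36.5 and 55.8 in P19 NTES7, 29.3, 25.7 and 44.5 in P19, and 26.4, 32.2 and 27.4 in R1, with overlap between neighbouring lines.

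**Figure D4:**
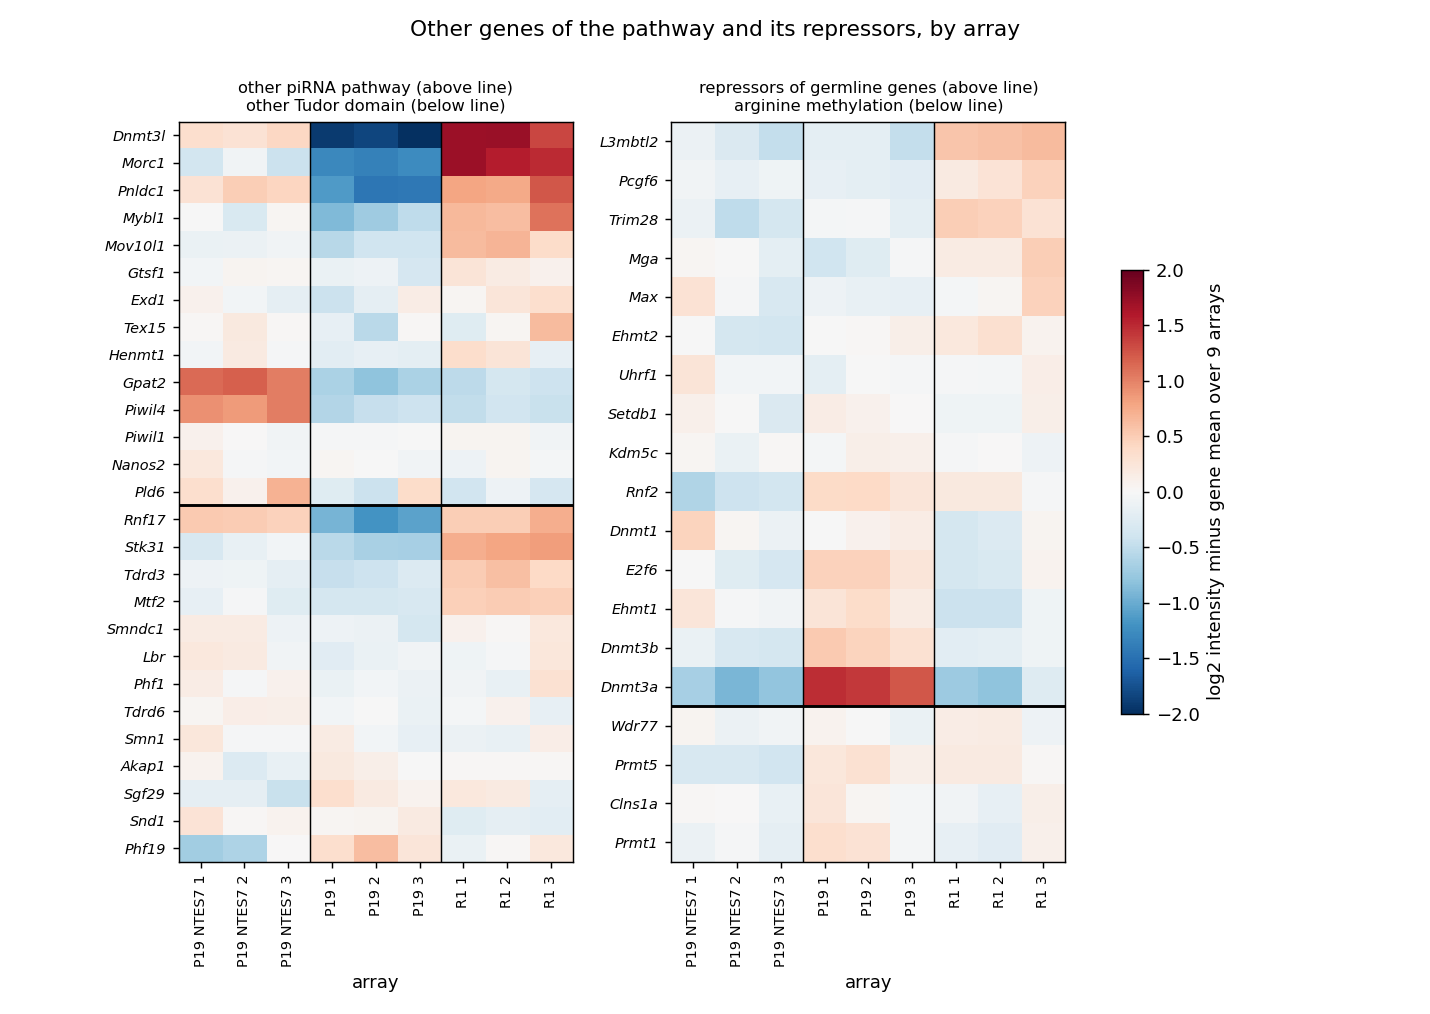
Log2 intensity of each gene minus its mean over the 9 arrays (colour scale from -2 to 2), by array, for the other piRNA pathway and Tudor domain genes (left) and for repressors of germline genes and arginine methylation genes (right), each list in order of P19 minus R1. Dnmt3l, Morc1 and Pnldc1 are lowest in P19, Gpat2 and Piwil4 are high in P19 NTES7 arrays only, and Dnmt3a is high in P19 arrays only.

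Of 13 other Tudor domain genes, 2 were called lower in P19 than in R1, and both act in germ cells. Over all probe sets, 3.70% were called lower in P19 than in R1 and 1.55% higher in P19 NTES7 than in P19. Against R1, 1.99% were called higher in P19 NTES7 and 2.53% lower. Rnf17 (TDRD4), which limits piRNA amplification in the mouse testis, was at 84.6, 84.4 and 81.1 in P19 NTES7, 30.9, 25.7 and 28.2 in P19, and 83.4, 82.9 and 97.3 in R1. P19 arrays stood below all others and P19 NTES7 and R1 arrays overlapped. Rnf17 was 3.11-fold lower in P19 than in R1 (adjusted p = 4.12e-08) and 2.95-fold higher in P19 NTES7 than in P19 (adjusted p = 2.32e-07), the only gene of this list called in that comparison with all arrays. Stk31 (TDRD8) averaged 13.7 ± 1.25 in P19 NTES7, 9.98 ± 0.523 in P19 and 26.4 ± 0.975 in R1 and was 2.65-fold lower in P19 than in R1 (adjusted p = 1.13e-07), a call lost with values under 16 set to 16 (log2 difference -0.72). In P19 NTES7 against R1 none was called in limma, where 1 was higher and 5 were lower at an unadjusted p under 0.05, and 0 were called by the variance test. Of genes not called, Lbr, a receptor of the nuclear lamina, was at 462 to 562.5 in P19 NTES7, 413.5 to 460.1 in P19 and 457 to 569.8 in R1, and Mtf2, a Polycomb protein, was at 476 to 558 in P19 NTES7, 441 to 450.0 in P19 and 786 to 803 in R1.

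None of 4 genes that make or assist the arginine methylation read by Tudor domains was called in any comparison in limma, nor by the variance test. Over all probe sets the shares of calls ran from 1.36% to 3.70%, so 0 calls among 4 genes says little. At an unadjusted p under 0.05, 1 was higher in P19 than in R1, and P19 NTES7 was lower than P19 for 2 and lower than R1 for 1. Prmt5, the enzyme that methylates PIWI proteins, averaged 361 ± 9.41 in P19 NTES7, 533 ± 35.5 in P19 and 503 ± 32.2 in R1, and its partner Wdr77 averaged 813 ± 50.4 in P19 NTES7, 825 ± 58.9 in P19 and 882 ± 89.9 in R1 (SD, n = 3).

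Of 15 repressors of germline genes, Dnmt3a alone was called. Dnmt3a, a de novo DNA methyltransferase, was at 83.4, 70.1 and 76.2 in P19 NTES7, 364, 352 and 313 in P19, and 79.3, 75.5 and 110 in R1. All P19 arrays were above those of the other lines, which overlapped. Dnmt3a was 3.94-fold higher in P19 than in R1 (log2 difference 1.98, SE 0.14, adjusted p = 1.01e-07) and 4.48-fold lower in P19 NTES7 than in P19 (-2.16, SE 0.14, adjusted p = 1.6e-07). Its cofactor Dnmt3l was lowest in the same P19 arrays. Trim28, a corepressor that was not called, averaged 1034 ± 141 in P19 NTES7, 1217 ± 80.6 in P19 and 1722 ± 126 in R1, and the log2 difference was -0.50 for P19 minus R1 (SE 0.11, adjusted p = 0.00391). Kdm5c, a histone demethylase, averaged 357 ± 22.6 in P19 NTES7, 378 ± 23.4 in P19 and 353 ± 13.1 in R1. In P19 NTES7 against R1, none of the 15 was called in limma, where 2 were higher and 6 were lower at an unadjusted p under 0.05, and 0 were called by the variance test.

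Germ cell markers outside the pathway were called in both directions between P19 NTES7 and R1. Of 14 markers, 6 were called lower in P19 than in R1 (Dazl, Prdm14, Tfap2c, Kit, Hormad1 and Syce1), and 4 had a call for P19 NTES7 over P19 (Dnd1, Tfap2c, Syce1 and Brdt). Against R1, in P19 NTES7 Dnd1 and Brdt were higher and Kit and Hormad1 lower. Over all probe sets, 3.70% were called lower in P19 than in R1 and 1.55% higher in P19 NTES7 than in P19. Against R1, 1.99% were called higher in P19 NTES7 and 2.53% lower. The summed intensity of the 14 markers was 442 to 458 on P19 NTES7 arrays, 247 to 264 on P19 arrays and 671 to 688 on R1 arrays. Dazl, an RNA-binding protein of germ cells, averaged 17.3 ± 1.18 in P19 NTES7, 10.4 ± 0.609 in P19 and 32.9 ± 2.46 in R1, and was 3.18-fold lower in P19 than in R1 (adjusted p = 2.34e-08). Stra8, the gene of meiotic entry, was below the array median on all 9 arrays. Dnd1, an RNA-binding protein of primordial germ cells, and Brdt, a bromodomain protein of the testis, were highest in P19 NTES7, as Tdrd5, Piwil4 and Gpat2 were. Dnd1 averaged 46.8 ± 5.35 in P19 NTES7, 11.6 ± 0.587 in P19 and 19.4 ± 2.16 in R1, and Brdt averaged 49.1 ± 3.44 in P19 NTES7, 11.8 ± 1.31 in P19 and 13.1 ± 0.395 in R1.

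The genes most like Tdrd12, Tdrkh and Ddx4 were taken from 1456 other genes called between P19 and R1, by Pearson's r of log2 values over the 9 arrays. The arrays share 3 lines, so a high r mostly says that the line means have the same order and spacing. Closest to Tdrd12 were Tbc1d13 (r = 0.998), Spry2 (r = 0.997) and Hsf2bp (r = 0.997). Spry2, an inhibitor of receptor tyrosine kinase signaling, averaged 104 in P19 NTES7, 99.7 in P19 and 538 in R1, and Hsf2bp, a protein of meiotic recombination, 18.6 in P19 NTES7, 16.5 in P19 and 158 in R1. Closest to Tdrkh were Bco2 (r = 0.997), Prr11 (r = 0.996) and Lrrc9 (r = 0.996), and Bco2, a carotenoid-cleaving enzyme, averaged 257 in P19 NTES7, 316 in P19 and 7.82 in R1. Closest to Ddx4 were Col3a1 (r = 0.991), Lox (r = 0.99) and the small nucleolar RNA gene Snora31 (r = 0.99). Col3a1, a fibrillar collagen and one of the fibroblast markers, averaged 48.4 in P19 NTES7, 14.2 in P19 and 82.9 in R1, and Lox, the lysyl oxidase that crosslinks collagen, averaged 68.9 in P19 NTES7, 12.5 in P19 and 124 in R1.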

How the data were processed

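The deposited values of the 9 arrays are intensities on the linear scale, which the authors made from 100 ng of RNA per array on the GeneChip Gene 1.0 ST Array with Robust Multichip Average (RMA). No source used here names a genome build for the array, and the values do not show the scaling of medians to 500 that the methods give. Probe sets were named from the platform annotation: 21789 had 1 gene symbol, 1621 several and 5443 none, and a gene with several probe sets was represented by the brightest.

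In limma (version 3.58.1 under R version 4.3.3), log2 intensities of all 28853 probe sets on the 9 arrays entered 1 fit, which had line means as its terms and moderated variances, and p-values were adjusted by Benjamini-Hochberg over all probe sets. The limits of 2 on fold change and 0.01 on p are those of the methods, where the p was that of a variance test with no adjustment named, and here the adjusted p was used. The methods' test was run as an alternative. Other alternatives changed scaling, normalization, low values, filters, arrays in the fit, the variance model, the replicate block and the call rule. Named from the further lists were all called genes of the pathway lists, up to 2 others a list by highest mean intensity, a rule for naming alone, and examples of the marker lists. E2f6, Mga, L3mbtl2, Pcgf6, Dnmt3b, Ehmt1 and Rnf2 were named outside this rule, after the values were seen. The most similar genes were searched for the 3 members with the largest difference between P19 and R1. Promoters and motifs were read with Python (version 3.11.15, pandas version 2.3.3), and figures were drawn with matplotlib (version 3.10.9).

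The members, lists and tests were chosen with earlier results of these data known. No set was tested for enrichment. Of the further lists, Fkbp6, Spocd1 and Btbd18 were not matched in the annotation. The raw images were not used here.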

Additional observations from a re-analysis of the deposited data

How the results depend on the processing

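Of 591 differences of members recomputed under the alternatives, 578 kept their call or lack of a call, and no called difference changed its direction. Among uncalled differences, 11 changed sign. Leaving out each array in turn gave 270 of these values, of which 0 crossed a limit, and the largest change of a called log2 difference was 0.14. The 3 members with a call for P19 NTES7 over P19 became 1 with values under 16 set to 16 and 1 with 16 added to every value, both of which reduce differences of dim genes, and became 5 with the adjusted p as the only limit. Under that limit alone, 2 members were higher in P19 than in R1 and 4 were lower in P19 NTES7 than in R1. With 16 added, Ddx4 (0.77, adjusted p = 0.00118) and Mael (0.59, adjusted p = 4.71e-05) missed the fold limit between P19 NTES7 and P19, and Tdrd7 (0.88, adjusted p = 0.000357) missed it between P19 NTES7 and R1. Over all probe sets, adding 16 lowered the calls to 489 higher and 599 lower in P19 than in R1 (1067 and 1068 before), 223 and 189 in P19 NTES7 than in P19 (447 and 392), and 303 and 406 in P19 NTES7 than in R1 (575 and 730). With values under 16 set to 16, 273 were higher in P19 NTES7 than in P19. The filter on dim probe sets left out 3 members. Of 480 counts of the further pathway lists, 22 differed from their first value by over 1.5 times. Without array 3 of P19 NTES7, Phf19 was called lower than in P19 (log2 difference -1.06) and Stk31 lower than in R1 (-1.02). Array numbers shared by the lines did not pair the samples (correlations of deviations from -0.22 to 0.04 over 9 pairs). Some pairs with different numbers were higher, up to 0.21 for R1 array 3 with P19 NTES7 array 1. A block by array number does not address a grouping of arrays in another order. With the replicate block the counts of members kept their values, with 1067 and 1069 calls in P19 against R1.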
